A study of Mus musculus with 16 samples.

Results

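The T cell receptor complex and its coreceptors were followed as 10 transcripts chosen by name: Cd3d, Cd3e, Cd3g and Cd247 for the signalling chains, Cd4, Cd8a and Cd8b1 for the coreceptors, Cd28 for co-stimulation, and Lck and Zap70 for the first kinases. They were 10 of the 54752 genes in the count table, and all 10 passed the filter on low counts that left 19736 genes for testing. The RNA came from iWAT, the inguinal depot of white fat that lies under the skin, of C57BL/6 mice labelled female and aged 90 days. There were 4 genotypes with 4 libraries each: wild type (WT), mice with 1 ob allele of the leptin gene (Lepob/+), mice with a high-copy mutant human SOD1 transgene (SOD1G93A, a model of amyotrophic lateral sclerosis), and mice with both (SOD1G93A-Lepob/+). The Lepob/+ mice keep 1 working leptin allele, and the transgene is not limited to motor neurons.

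An alpha beta T cell reads peptide on MHC molecules with its receptor, which has no signalling tail of its own. The CD3 chains (Cd3d, Cd3e, Cd3g) and the zeta chain (Cd247) carry the tails. CD4 binds MHC class II and CD8, a pair of Cd8a and Cd8b1 chains on most T cells, binds MHC class I. Both bring the kinase LCK to the receptor, LCK phosphorylates the tails, ZAP-70 docks on them, and CD28 adds the second signal. Fat holds resident T cells, and the inguinal pad also encloses a lymph node, where T cells are packed densely. Lymphocytes enter it from the blood across high endothelial venules. Glycam1 encodes a mucin made by these vessels and by lactating mammary epithelium, but not by adipocytes.

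Library totals were 36795376 to 61886313 counts. Adipocyte markers were abundant in every library, with Fabp4, a fatty acid carrier, at 5343 to 12714 CPM (counts scaled to a common library size with TMM factors). The library labelled SOD1G93A-Lepob/+ replicate 3 had 0 Xist counts and 1756 counts of Y-linked genes, against its female label, whereas the other 15 libraries had 0 counts of those Y-linked genes. Skeletal muscle transcripts summed to 152840 CPM at most (Lepob/+ replicate 4) and 3860 CPM at most in WT. Nothing in the labels places the mice in batches, and the p-values below measure the spread between these libraries, each labelled as a separate sample.

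Upstream sequences are shown for Cd3g and Cd3d, neighbours that are transcribed away from each other, and for both kinases. Each is the 250 bases before an annotated start in gene orientation, from RefSeq (GRCm38.p6). The table used gave windows at 2 starts for Lck and 3 for Zap70, of which the most upstream is shown. Capitals mark 4 short words searched on both strands: AGGAAG (the core of ETS sites), TGTGGT (RUNX), CTTTGA (TCF/LEF) and CAGGTG (an E-box). They were found in 29.5%, 14.0%, 13.8% and 17.2%, in that order, of all 32851 windows of this length, so a match is a description of the letters only. Windows were found for 7 of the 10 members. None was found for Cd4, Cd8b1 and Cd28.
Cd3d, chr9:44981536-44981785, plus strand: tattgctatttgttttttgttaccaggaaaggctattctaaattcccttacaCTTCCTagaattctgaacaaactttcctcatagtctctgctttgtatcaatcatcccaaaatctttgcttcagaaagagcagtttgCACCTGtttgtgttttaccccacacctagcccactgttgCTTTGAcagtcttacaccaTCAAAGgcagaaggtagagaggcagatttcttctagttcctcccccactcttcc
Cd3g, chr9:44980432-44980681, minus strand: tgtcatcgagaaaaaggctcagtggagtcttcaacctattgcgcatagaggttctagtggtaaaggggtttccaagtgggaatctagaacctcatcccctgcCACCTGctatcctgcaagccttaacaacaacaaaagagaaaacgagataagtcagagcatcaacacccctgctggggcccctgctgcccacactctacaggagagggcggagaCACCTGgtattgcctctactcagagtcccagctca
Lck, chr4:129573642-129573891, minus strand: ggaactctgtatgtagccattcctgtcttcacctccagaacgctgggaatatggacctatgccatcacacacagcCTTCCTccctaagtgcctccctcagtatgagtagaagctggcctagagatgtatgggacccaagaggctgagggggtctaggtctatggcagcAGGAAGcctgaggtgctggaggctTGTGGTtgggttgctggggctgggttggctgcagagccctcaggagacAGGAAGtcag
Zap70, chr1:36761548-36761797, plus strand: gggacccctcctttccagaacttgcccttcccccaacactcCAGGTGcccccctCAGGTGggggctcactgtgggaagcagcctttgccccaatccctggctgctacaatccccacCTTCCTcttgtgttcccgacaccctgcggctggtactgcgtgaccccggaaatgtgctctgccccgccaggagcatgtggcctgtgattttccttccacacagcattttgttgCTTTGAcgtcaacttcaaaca
In these windows Cd3d held 1 ETS word, 2 TCF/LEF words and 1 E-box, Cd3g held 2 E-boxes, Lck held 3 ETS words and 1 RUNX word, and Zap70 held 1 ETS word, 1 TCF/LEF word and 2 E-boxes. The starts of Cd3g and Cd3d lie 1355 bases apart on opposite strands. No word was common to the 4 windows.

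The 16 libraries fell into 2 sets that did not coincide with genotype but were unevenly spread over the genotypes. In 6 libraries (WT replicates 1 and 2, Lepob/+ replicate 3, and SOD1G93A replicates 1, 2 and 4) Glycam1 (chromosome 15, 103562759 to 103565081, minus strand, GRCm38) stood at 203 to 614 CPM. In the other 10 it was at 0 counts in 9 libraries and at 0.0603 CPM in Lepob/+ replicate 1. The widest gap in Glycam1 separated the sets, and the other high endothelial venule and lymph node stroma genes divided the libraries in the same way. All 4 SOD1G93A-Lepob/+ libraries were among the 10. The members summed to 534 to 1018 CPM in the 6 libraries with high Glycam1 and to 14.1 to 29.4 CPM in the 10 with low Glycam1. These sets were made from a measured gene and are not groups of the study, so differences between them are given as descriptions with no test.

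**Figure D1:**
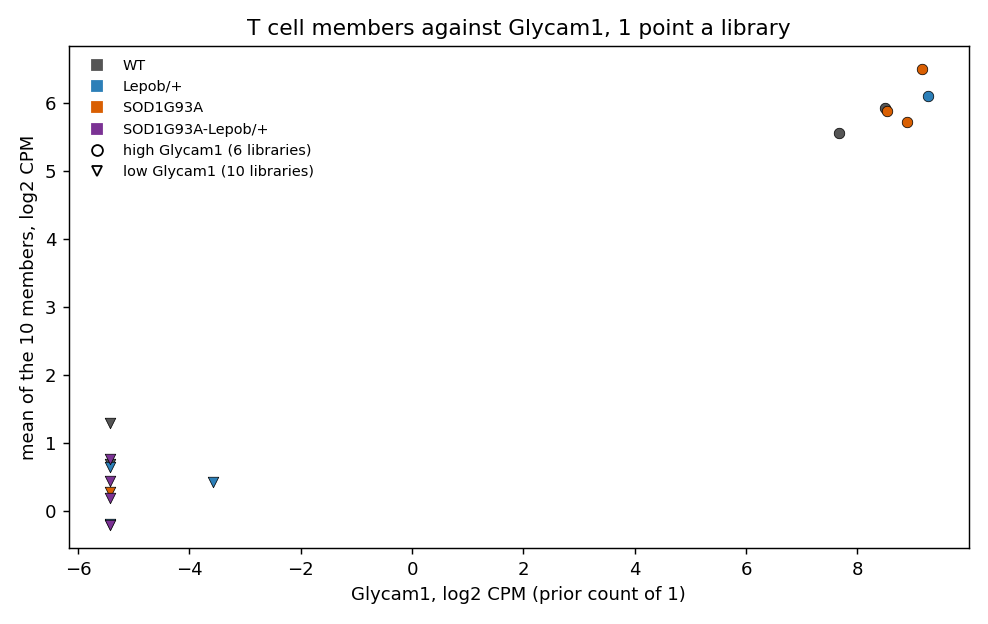
Mean log2 CPM of the 10 members (vertical axis) against log2 CPM of Glycam1 (horizontal axis, prior count of 1), with 1 point for each library, coloured by genotype. The 6 libraries with high Glycam1 lie between 5.57 and 6.51 on the vertical axis and the 10 with low Glycam1 between -0.21 and 1.30.

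Within the 6 libraries the mean log2 CPM of the members and log2 CPM of Glycam1 had a Pearson r of 0.75 (two-sided exact permutation p = 0.0847) and a Spearman rho of 0.71 (exact p = 0.136), both 0.136 after Benjamini-Hochberg adjustment over the pair. Neither passed 0.05. Without WT replicate 2 and Lepob/+ replicate 3, the libraries farthest from the Glycam1 median, r was 0.66 over 4 libraries. Against the mean of the other venule and stroma genes in place of Glycam1, r over the 6 libraries was 0.95 (exact permutation p = 0.00694, not adjusted). This was an alternative setting among several, and the permutations took no account of genotype. No coefficient of the members with Glycam1 was computed over the 16 libraries, which form separate clusters, nor over the 10, where Glycam1 was 0 in all but 1.

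Each of the 10 members was higher in every library with high Glycam1 than in any with low Glycam1. Of 19735 genes, the members among them, 11.2% showed this pattern. The median log2 difference between the sets was 5.81 over the members and -0.02 over all genes. In bulk tissue, fewer T cells and less RNA per T cell cannot be told apart.

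**Figure D2:**
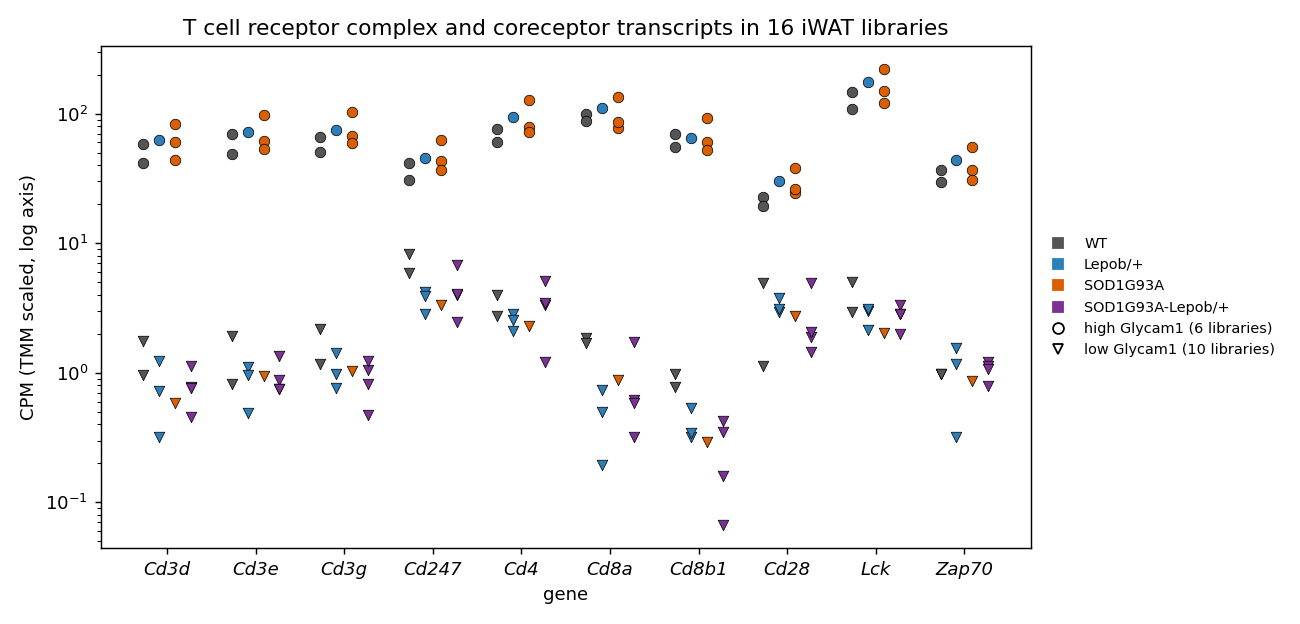
CPM (log axis) of the 10 members in the 16 libraries, coloured by genotype, with circles for high and triangles for low Glycam1. For every gene the 6 circles lie above all 10 triangles, and every SOD1G93A-Lepob/+ library is a triangle.

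The CD3 chains divided the libraries widely. Cd3e (chromosome 9, 44998740 to 45009627, minus strand), the epsilon chain found in both CD3 pairs, stood at 69.3, 49.0, 0.826 and 1.93 CPM in WT replicates 1 to 4. It stood at 1.11, 0.489, 72.2 and 0.966 CPM in the Lepob/+ libraries and at 61.7, 97.9, 0.950 and 53.7 CPM in the SOD1G93A libraries. In the SOD1G93A-Lepob/+ libraries it was 0.886, 0.749, 0.748 and 1.35 CPM. SOD1G93A replicate 3 alone of its genotype lay in the range of the double mutants, and the WT libraries were split 2 and 2. Of its exon bases, 135 of 4080 overlap Gm48719 on the opposite strand. Cd3d (chromosome 9, 44981786 to 44987339, plus strand), the delta chain, ranged from 41.6 to 83.8 CPM in the 6 libraries and from 0.318 to 1.77 CPM in the 10. Cd3g (chromosome 9, 44969572 to 44980431, minus strand), the gamma chain, ranged from 50.4 to 102 CPM and from 0.476 to 2.17 CPM. The medians of the sets differed 77.3-fold for Cd3d, 71.4-fold for Cd3e and 64.0-fold for Cd3g. The 3 genes also kept step within each set. Over the 10 libraries, where each had 13 to 82 counts, their pairwise Pearson r on log2 CPM was 0.71 to 0.82, and over the 6 it was 0.96 to 0.97. These coefficients share libraries and depth and are descriptions.

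Cd247 (chromosome 1, 165788681 to 165877277, plus strand), the zeta chain, divided the libraries less widely. It stood at 41.8, 30.9, 8.29 and 5.90 CPM in WT, at 4.22, 3.91, 45.9 and 2.86 CPM in Lepob/+, at 42.9, 62.8, 3.35 and 37.0 CPM in SOD1G93A and at 3.98, 4.05, 6.80 and 2.47 CPM in SOD1G93A-Lepob/+. The medians differed 10.6-fold. Relative to the mean count of the 3 CD3 genes in the same library, Cd247 was 0.650 to 0.706 in the 6 libraries and 2.22 to 12.2 in the 10, with no overlap. Of its 5329 exon bases, 3007 are shared with Pou2f1 on the opposite strand and 206 with Gm16565, and the strand setting of the counting is not given in the sources used here. Pou2f1 stood at 17.3 to 29.0 CPM in 7 libraries, of which 4 had high and 3 low Glycam1, and at 0.205 to 1.08 CPM in the other 9. The 3 low-Glycam1 libraries with high Pou2f1 (WT replicate 4, Lepob/+ replicate 1, SOD1G93A-Lepob/+ replicate 4) had Cd247 at 3.01, 4.50 and 2.22 times the CD3 mean, against 2.37 to 12.2 times in the other 7. What shared reads add to Cd247 was not tested.

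The coreceptors differed by unequal amounts. Cd4 (chromosome 6, 124864692 to 124888221, minus strand) stood at 75.9, 60.9, 2.74 and 4.02 CPM in WT, at 2.84, 2.54, 94.4 and 2.1 CPM in Lepob/+, at 79.3, 127, 2.31 and 72.4 CPM in SOD1G93A and at 3.32, 5.12, 1.20 and 3.45 CPM in SOD1G93A-Lepob/+. Cd8a (chromosome 6, 71373427 to 71379173, plus strand), the chain common to both forms of CD8, stood at 99.7, 88.4, 1.86 and 1.69 CPM in WT and at 0.503, 0.196, 111 and 0.733 CPM in Lepob/+. It stood at 78.2, 135, 0.880 and 85.6 CPM in SOD1G93A and at 0.620, 1.72, 0.317 and 0.590 CPM in SOD1G93A-Lepob/+. Thus Cd8a was above Cd4 in 5 of the 6 libraries with high Glycam1 and below it in all 10 with low Glycam1. Cd8b1 (chromosome 6, 71322788 to 71337494, plus strand), the chain that marks conventional CD8 T cells, stood in SOD1G93A-Lepob/+ at 0.0664, 0.350, 0.159 and 0.421 CPM. Its counts in the 10 libraries were 3 to 37, so these levels carry a large counting error. In the 6 libraries it ranged from 52.4 to 92.7 CPM. The medians of the sets differed 27.8-fold for Cd4, 139-fold for Cd8a and 181-fold for Cd8b1.

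The ratio of Cd4 to Cd8a counts was taken within each library, where scaling cancels. Among the libraries with high Glycam1 it was 0.761 (95% exact binomial interval 0.729 to 0.795) in WT replicate 1, 0.689 (0.656 to 0.724) in WT replicate 2 and 0.850 (0.814 to 0.887) in Lepob/+ replicate 3. It was 1.01 (0.968 to 1.06), 0.939 (0.905 to 0.974) and 0.846 (0.807 to 0.888) in SOD1G93A replicates 1, 2 and 4. Both WT libraries lay below the other 4. Intervals cover counting error only.

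Among the libraries with low Glycam1 the ratio was above 1 throughout. It was 1.47 (1.08 to 2.01) and 2.38 (1.76 to 3.23) in WT replicates 3 and 4. It was 5.64 (3.67 to 9.01), 13.0 (6.36 to 30.9) and 2.86 (1.74 to 4.89) in Lepob/+ replicates 1, 2 and 4, the second from 8 Cd8a counts. In SOD1G93A replicate 3 it was 2.63 (1.89 to 3.70). In SOD1G93A-Lepob/+ replicates 1 to 4 it was 5.36 (3.56 to 8.33), 2.97 (2.25 to 3.96), 3.79 (2.07 to 7.39) and 5.86 (3.67 to 9.80). The median was 0.848 over the 6 libraries and 3.38 over the 10, and the sets did not overlap. With Cd8b1 in place of Cd8a the ratio was 1.10 to 1.45 in the 6 and 3.53 to 50 in the 10. Macrophage transcripts summed to 555 to 1704 CPM over 8 markers in the 6 libraries and to 579 to 2842 CPM in the 10. Those of dendritic cells, some of which express Cd8a or Cd4, summed to 87.2 to 109 and 36.4 to 75.1 CPM over 7 markers. No marker of either list was at 0 throughout a set. Their part in the ratio was not tested.

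**Figure D3:**
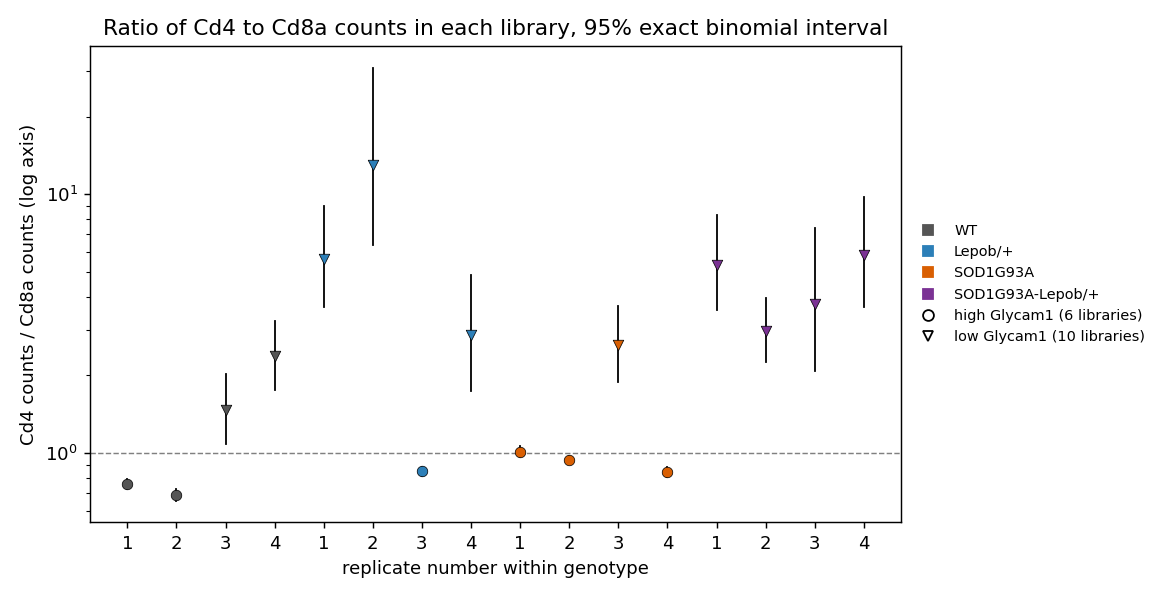
Cd4 counts divided by Cd8a counts in each library (log axis), in order of genotype and replicate number, with 95% exact binomial intervals and a dashed line at 1. The 6 circles (high Glycam1) lie at 0.689 to 1.01 and the 10 triangles (low Glycam1) at 1.47 to 13.0.

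By genotype, the mean log2 ratio of Cd4 to Cd8a (0.5 counts added to both) was 2.09 ± 0.45 (SD, n = 4) in SOD1G93A-Lepob/+ and 0.27 ± 0.75 in SOD1G93A. The 4 double mutant libraries all lay above the 4 SOD1G93A libraries. The difference of 1.82 gave a two-sided exact permutation p of 0.0286, the smallest that 4 against 4 allows, and 0.0857 after Benjamini-Hochberg adjustment over 3 comparisons, which does not pass 0.05. It was 1.89 without the library labelled SOD1G93A-Lepob/+ replicate 3 (exact p = 0.0571). The mean log2 ratio was 1.84 ± 1.63 in Lepob/+ and 0.22 ± 0.84 in WT, a difference of 1.62 (exact p = 0.114, adjusted 0.171). SOD1G93A and WT differed by 0.05 (exact p = 0.943, adjusted 0.943), a value that turned to -0.32 without SOD1G93A replicate 3. Genotype and Glycam1 class cannot be told apart in the first of these, since all the double mutant libraries had low Glycam1. The single low-Glycam1 library of SOD1G93A had a ratio below those of the 4 double mutants, with an interval (1.89 to 3.70) that overlapped all of theirs.

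Cd28 (chromosome 1, 60716800 to 60773359, plus strand), the co-stimulatory receptor, stood at 22.9, 19.3, 1.14 and 4.97 CPM in WT, at 2.94, 3.13, 30.2 and 3.76 CPM in Lepob/+, at 24.6, 38.2, 2.76 and 26.0 CPM in SOD1G93A and at 1.90, 4.95, 1.45 and 2.05 CPM in SOD1G93A-Lepob/+. The medians of the sets differed 8.89-fold, the lowest such ratio of the 10 members. Lck (chromosome 4, 129548344 to 129573641, minus strand), the kinase carried by both coreceptors, stood at 147, 108, 2.97 and 5.02 CPM in WT, at 3.02, 2.13, 175 and 3.13 CPM in Lepob/+, at 149.8, 222, 2.02 and 121 CPM in SOD1G93A and at 3.32, 2.85, 2.00 and 2.86 CPM in SOD1G93A-Lepob/+. Its medians differed 50.8-fold. Zap70 (chromosome 1, 36761798 to 36782818, plus strand), the kinase that binds phosphorylated tails, ranged from 29.5 to 55.5 CPM in the 6 libraries and from 0.318 to 1.57 CPM in the 10, and its medians differed 36.1-fold. In the double mutants it stood at 1.22, 1.12, 0.794 and 1.07 CPM.

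Set against the mean of the 3 CD3 genes within a library, the members fell into those whose values overlapped between the sets and those whose values did not. Lck was 2.28 to 2.50 times that mean in the 6 libraries and 2.36 to 4.08 times in the 10, and Zap70 was 0.574 to 0.627 and 0.50 to 1.47 times, with overlap. Cd8a also overlapped, at 1.23 to 1.88 and 0.375 to 1.89. Cd4 did not, at 1.18 to 1.38 in the 6 and 1.73 to 5.26 in the 10, and neither did Cd28, at 0.356 to 0.497 and 1.16 to 6.00. Cd8b1 ran the other way, at 0.933 to 1.18 and 0.0804 to 0.789. These shares are descriptions of the 2 sets.

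**Figure D4:**
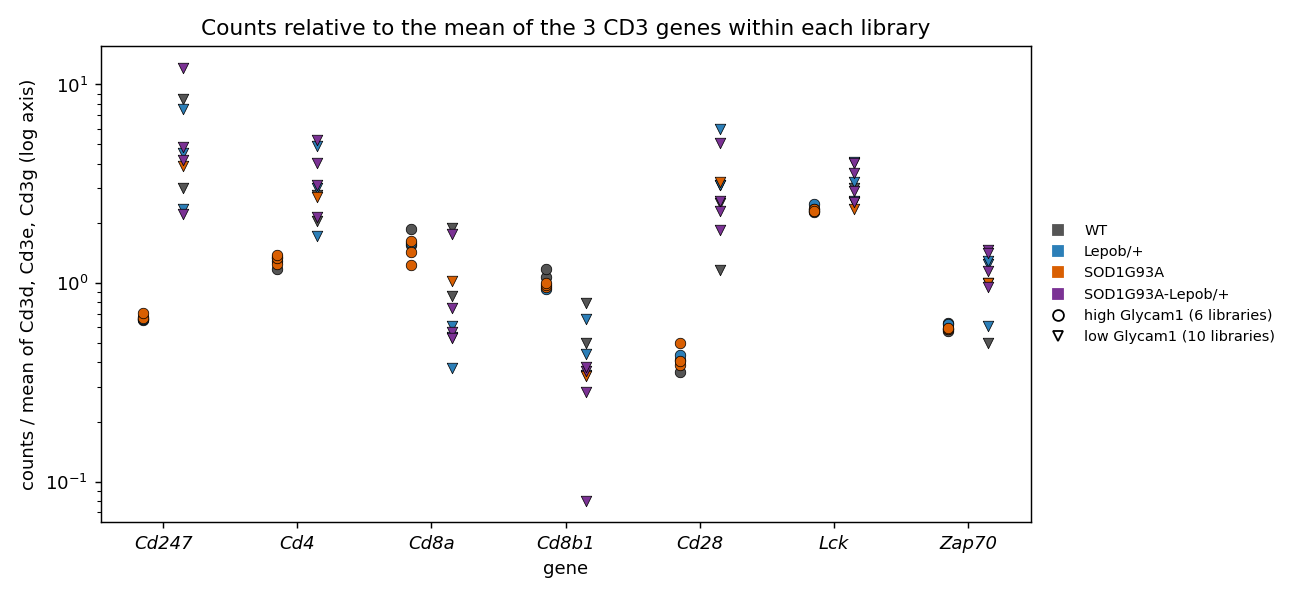
Counts of 7 members divided by the mean count of Cd3d, Cd3e and Cd3g in the same library (log axis), with high-Glycam1 libraries left and low-Glycam1 libraries right of each gene. Cd247, Cd4 and Cd28 are higher in all 10 triangles than in any circle, Cd8b1 is lower, and Cd8a, Lck and Zap70 overlap.

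Per length, as RPKM (CPM divided by the exon length in kilobases), the order of the levels also changed between the sets. In the 6 libraries the median RPKM was 50.6 for Lck, 42.3 for Cd8b1, 32.7 for Cd3d, 25.9 for Cd8a, 20.4 for Cd3g, 19.2 for Cd4, 16.1 for Cd3e, 12.4 for Zap70, 7.95 for Cd247 and 4.14 for Cd28. In the 10 libraries it was 0.996 for Lck, 0.754 for Cd247, 0.691 for Cd4, 0.465 for Cd28, 0.422 for Cd3d, 0.342 for Zap70, 0.319 for Cd3g, 0.233 for Cd8b1, 0.225 for Cd3e and 0.186 for Cd8a. Lck led in both, Cd8b1 moved from second to eighth, and Cd247 and Cd28 moved up from the last places. In both orders the ranges over libraries overlapped for all 9 pairs of neighbours.

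The comparison of SOD1G93A-Lepob/+ with SOD1G93A asks what loss of 1 leptin allele does in transgenic mice. All 10 members were lower in the double mutants, with fitted log2 fold changes of -3.08 to -7.70 and a median of -5.67, against a median of 4.78e-04 over all 19736 genes. Cd3e went from 53.6 ± 40.0 CPM (SD, n = 4) in SOD1G93A to 0.933 ± 0.284 CPM (log2 fold change -5.84 ± 1.92 SE). No member passed an adjusted p of 0.05 in edgeR's quasi-likelihood test with Benjamini-Hochberg adjustment (adjusted p = 0.261 for each), nor did any gene (0%). At an unadjusted p under 0.05, all 10 were lower, as were 12.3% of all genes (16.5% in either direction). DESeq2 on the 8 libraries called all 10 lower (adjusted p 3.58e-07 for Cd8b1 to 2.76e-04 for Cd4) and 6.36% of all genes lower. DESeq2 on all 16 libraries called all 10 and 2.57% of genes lower, and limma voom with quality weights called 9, Cd8b1 being the exception, and 19.1% of genes lower. Without the library labelled SOD1G93A-Lepob/+ replicate 3, DESeq2 on the 7 remaining libraries called all 10 and 4.87% of genes lower. Without SOD1G93A replicate 3 it called all 10 and 16.9% of genes lower.

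The levels within SOD1G93A were widely spread. No member's libraries were separate between the 2 genotypes, because SOD1G93A replicate 3 lay among the double mutants, whereas 3.6% of all genes were lower in every double mutant library. With log2 CPM of Glycam1 as a covariate in the edgeR fit, the median of the members was -0.07, 3 of 10 were above 0 and none had an unadjusted p under 0.05. Glycam1 was at 0 counts in every double mutant library and, within SOD1G93A, only in replicate 3. The covariate was thus nearly the division into high and low Glycam1, and this fit cannot decide the part of lymph node tissue. In SOD1G93A replicate 3 alone, the members summed to 15.1 CPM, within the 14.4 to 23.1 CPM of the double mutants.

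**Figure D5:**
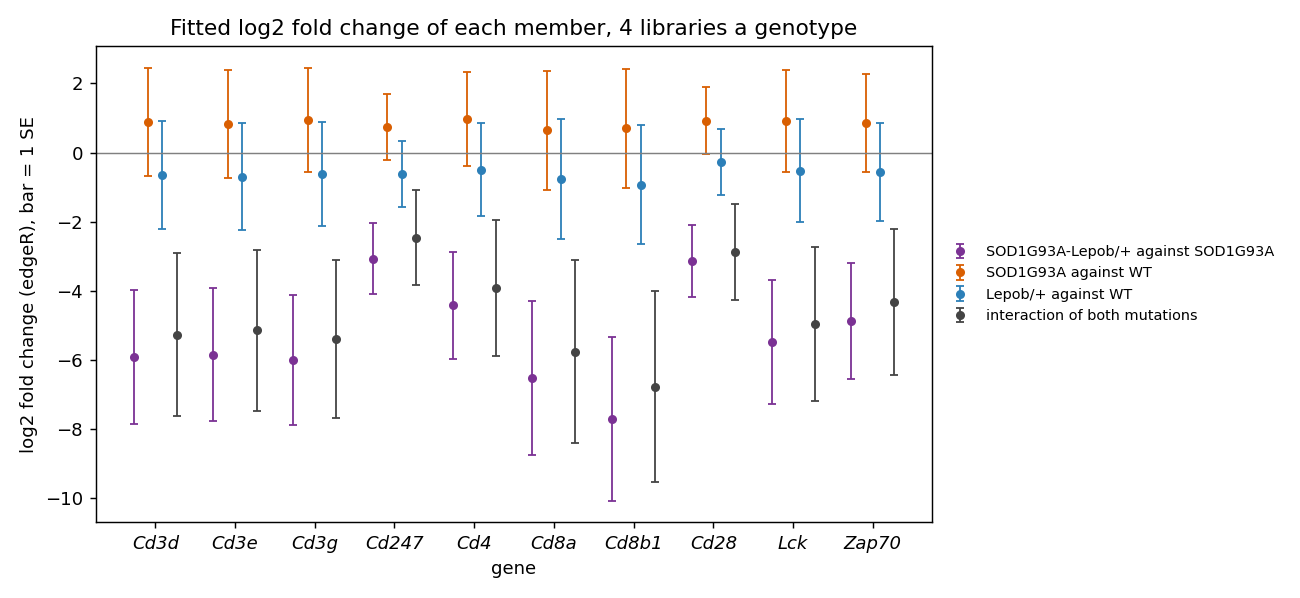
Fitted log2 fold changes (edgeR) of the 10 members in each comparison and for the interaction of both mutations, with bars of 1 SE and 4 libraries a genotype. Values for SOD1G93A-Lepob/+ against SOD1G93A lie between -3.08 and -7.70, while those of both comparisons with WT lie within 1 of 0.

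SOD1G93A was compared with WT to see what the transgene does on its own, and Lepob/+ with WT for the ob allele on its own. Both use the same 4 WT libraries. The members had log2 fold changes of 0.64 to 0.97 in SOD1G93A (median 0.87, all genes 0.02) and of -0.93 to -0.27 in Lepob/+ (median -0.62, all genes 0.03). Cd3e was 30.3 ± 34.4 CPM in WT and 18.7 ± 35.7 CPM in Lepob/+ (SD, n = 4), and in both comparisons the standard error, at 0.95 to 1.73, was larger than the log2 fold change for all 10 members. No member passed edgeR's adjusted p of 0.05 in either (0% of genes), and none had an unadjusted p under 0.05, against 2.56% of genes in the first and 4.37% in the second. DESeq2 on the 8 libraries called no member in either, 0.062% of genes in the first and 0.0174% in the second. Limma voom called no member in either, with 0 and 2 members at an unadjusted p under 0.05, against 9.04% and 6.29% of genes. Single libraries moved both medians. That of SOD1G93A against WT was 0.43 without SOD1G93A replicate 2 and 1.58 without WT replicate 1, and it was -0.30 with Glycam1 as a covariate. That of Lepob/+ against WT was 0.11 without WT replicate 1 and -4.72 without Lepob/+ replicate 3, where 9 members were lower at an unadjusted p under 0.05, against 4.73% of genes.

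Whether the ob allele acted differently with and without the transgene was tested as an interaction. All 10 members had negative interaction terms, from -2.46 for Cd247 to -6.77 for Cd8b1 (median -5.06, all genes -0.09). With Glycam1 as a covariate 9 of 10 terms were positive (median 0.54), and with voom the median was -1.68. None passed an adjusted p of 0.05 in edgeR (0% of genes, lowest adjusted p of a member 0.564). At an unadjusted p under 0.05, 6 of 10 were below 0 (Cd3d, Cd3e, Cd3g, Cd8a, Cd8b1 and Lck), against 5.82% of genes (7.98% in either direction). DESeq2 on all 16 libraries called no member at an adjusted p (0.202% of genes), with all 10 below 0 at an unadjusted p under 0.05, against 5.68% of genes. Voom called none, with 0 at an unadjusted p under 0.05, against 9.05% of genes. Without Lepob/+ replicate 3 the median term was -0.79 and no member had an unadjusted p under 0.05, against 3.27% of genes below 0. Over the other omissions of 1 library the number at an unadjusted p under 0.05 ran from 0 (without SOD1G93A-Lepob/+ replicate 1) to 10 (without SOD1G93A replicate 3), against 2.28% to 10.6% of genes below 0, while the median stayed between -5.82 and -4.59.

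The rest of the pathway was read from lists. Of all genes, 12.3% were lower in the double mutants than in SOD1G93A at an unadjusted p under 0.05 in edgeR, and 6.36% were called lower by DESeq2 on the 8 libraries. Of 7 T cell receptor constant chains, all 7 had lower levels in the double mutants than in SOD1G93A (median log2 fold change -4.61), 6 at an unadjusted p under 0.05 in edgeR and 7 called by DESeq2. Trac, the alpha constant chain, was at -5.70 ± 1.81 (SE), Trbc2, a beta constant chain that shares near-identical sequence with Trbc1, at -5.99 ± 1.90, Trdc, the delta chain, at -3.47 ± 0.99, and Tcrg-C2, a gamma chain, at -4.61 ± 1.39. Of 32 genes of proximal receptor signalling, 31 were lower (median -2.76), 27 at an unadjusted p under 0.05 and 25 by DESeq2. Rasgrp1, which couples the receptor to Ras, was at -4.09 ± 1.20, Txk, a Tec family kinase, at -4.96 ± 1.55, Ptpn6, the phosphatase SHP-1, at -1.88 ± 0.58, and Cblb, a ubiquitin ligase that restrains the receptor, at -0.70 ± 0.21. The edgeR adjusted p was 0.261 for each of these. Of 12 co-stimulators and co-inhibitors, all 12 were lower (median -3.50), 11 at an unadjusted p under 0.05 and 11 by DESeq2, among them Icos at -3.55 ± 1.02, Ctla4 at -5.84 ± 1.86, Btla at -5.96 ± 1.85 and Cd40lg at -5.86 ± 1.89.

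The ligands and MHC partners of the members had smaller log2 fold changes, none past the test. Cd86, a ligand of CD28, had a log2 fold change of -0.69 ± 0.40 (SE) and Cd80, the other ligand, one of -0.42 ± 0.38. For MHC class I, H2-K1 was at -0.37 ± 0.17, B2m at 0.12 ± 0.18 and H2-D1 at 0.0032 ± 0.17. For MHC class II, H2-Aa was at -0.67 ± 0.33, H2-Eb1 at -0.63 ± 0.30 and H2-Ab1 at -0.60 ± 0.31. None of these 8 had an unadjusted p under 0.05 in edgeR (16.5% of all genes in either direction) or was called by DESeq2 (8.11%). In SOD1G93A against WT the medians were 0.92 for the constant chains, 0.82 for proximal signalling and 0.87 for the co-stimulators and co-inhibitors. In Lepob/+ against WT they were -0.53, -0.16 and -0.30. No gene of these lists had an unadjusted p under 0.05 in either, against 2.56% of all genes in SOD1G93A against WT and 4.37% in Lepob/+ against WT.

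The genes whose pattern was most like that of the members were named by the Pearson r of their log2 CPM with the members' mean over the 16 libraries. They included Trbc2 (r = 0.998), Gimap3 and Trbc1 (both 0.997), Cxcr6 and Ptprcap (both 0.996), Ms4a4b, Ltb and Ctsw (0.995 each) and Skap1 (0.994). The coefficients span both sets of libraries and are descriptions. Over the same 16 libraries the members correlated with each other at 0.890 to 0.996. Within the sets the 45 pairs ran from 0.74 to 0.998 over the 6 libraries and from -0.40 to 0.86 over the 10, where the 5 negative pairs all included Cd247 and that with Cd28 was the lowest.

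Summed over their lists, markers of other lymph node cells were higher in the same libraries as the members. The 9 B cell markers summed to 566 to 1776 CPM in the 6 libraries with high Glycam1 and to 5.35 to 24.0 CPM in the 10, and Cd79a, part of the B cell receptor, stood at 119 to 343 and 0.566 to 3.83 CPM. The 8 natural killer cell markers summed to 30.3 to 60.2 and 5.23 to 9.92 CPM, with Klrd1 at 8.76 to 17.1 and 0.233 to 2.17 CPM. Not every marker of that list divided the sets. Gzma reached 2.72 CPM in the double mutants and 2.50 CPM at most in Lepob/+, although Lepob/+ replicate 3 had high Glycam1. Klra8 reached 0.996 CPM in the double mutants and 0.846 CPM at most in WT, although WT replicates 1 and 2 had high Glycam1. The 9 lymph node stroma and venule markers summed to 640 to 1300.0 CPM in the 6 and 87.9 to 220 CPM in the 10. This list includes Glycam1 itself, which defined the sets, so part of that difference was fixed in advance. Without Glycam1, the mean log2 CPM of the list was 3.99 to 4.83 in the 6 and -0.39 to 0.62 in the 10. Chst4, which sulfates the ligands of L-selectin, was at 0 in all 10. In the double mutants against SOD1G93A, all 9 B cell markers were lower at an unadjusted p under 0.05 (median -6.88), as were 3 of 8 natural killer, 3 of 7 dendritic cell and 6 of 9 stroma and venule markers. Of all genes, 12.3% were lower at that p in edgeR. DESeq2 called the same numbers of markers lower, and 6.36% of all genes. The 8 macrophage markers (median 0.56) and 8 adipocyte markers (median 0.38) all had positive log2 fold changes, 0 and 1 of them at an unadjusted p under 0.05. Of all genes, 4.19% were higher at that p. The part of lymph node tissue in the fold changes of the members was not tested.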

How the data were processed

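RNA from 16 iWAT samples was sequenced as paired-end reads. Library preparation is named as NEBNext Ultra per the labels and as TruSeq Stranded mRNA in the study's methods, and the strand setting of the counting is not given in the sources used here. The authors trimmed reads with fastp, aligned them with HISAT2 (2.1.0 in the submitters' processing notes) to mm10, and used featureCounts (2.0.2) on reads that mapped uniquely. The deposited values are raw counts per gene, 1 column a library, with no column of another series. Annotation was matched to GENCODE M21 (54723 of 54752 IDs).

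The main test was edgeR (4.0.16, quasi-likelihood, robust) in 1 fit of the 16 libraries, with TMM scaling, filterByExpr (count minimum 10, total 15) and Benjamini-Hochberg adjustment over 19736 genes at 0.05. CPM used TMM library sizes, and log2 values a prior count of 1. Standard errors of edgeR's log2 fold changes were computed back from its F statistics, so they restate the same test. DESeq2 (1.42.0), limma voom (3.58.1, R 4.3.3), other scalings and filters, a replicate block, a Glycam1 covariate and leaving out each library were alternatives. Ratios were tested by exact permutation. Scripts were tested on simulated data. Depth was 36795376 to 61886313 counts a library.

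The members, lists and tests were chosen with earlier results of these data known. Genes named beside the members were Glycam1, up to 4 genes of each pathway list with the smallest edgeR p in SOD1G93A-Lepob/+ against SOD1G93A, the gene of highest mean CPM in each marker list, and the 10 genes most correlated with the members, of which 1 is not reported here. Chst4, Gzma, Klra8, Pou2f1, Gm16565, Gm48719, Xist, Lep, Sod1 and the gamma chains Tcrg-C1 and Tcrg-C4 were named after their values were seen.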

Additional observations from a re-analysis of the deposited data

Results flagged for a closer look

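Within each genotype of 4 libraries, Dixon's test was applied to log2 CPM of each member and to the log2 ratio of Cd4 to Cd8a, 44 groups in all, of which 17 had 1 library far from the other 3. Chance flags about 1 in 20 such groups, and the groups share libraries. SOD1G93A replicate 3 stood low of the other SOD1G93A libraries for 9 members, with log2 CPM of -0.71 for Cd3d, -0.040 for Cd3e, 0.083 for Cd3g, 1.22 for Cd4, -0.15 for Cd8a, -1.66 for Cd8b1, 1.48 for Cd28, 1.03 for Lck and -0.17 for Zap70. Its log2 ratio of Cd4 to Cd8a, 1.39, was far above the other 3. Lepob/+ replicate 3 stood high of the other Lepob/+ libraries for 7 members, with log2 CPM of 6.17 for Cd3e, 6.22 for Cd3g, 5.52 for Cd247, 6.56 for Cd4, 6.03 for Cd8b1, 4.92 for Cd28 and 7.45 for Lck. Glycam1 was 0 counts in the first of these libraries and 614 CPM in the second, each unlike the other 3 of its genotype.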

How the results depend on the processing

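The number of members called in SOD1G93A-Lepob/+ against SOD1G93A was 0 in edgeR under each other scaling, filter, block, covariate and omission of a library. It was 10 with DESeq2 on the compared genotypes only, 10 with DESeq2 on all 16 libraries and 9 with limma voom with quality weights. DESeq2 on the compared genotypes called 10 without SOD1G93A-Lepob/+ replicate 3 (4.87% of genes lower) and 10 without SOD1G93A replicate 3 (16.9%), alternatives chosen after seeing the data. In the other comparisons and the interaction it was 0 throughout.

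With Glycam1 as a covariate in edgeR the log2 fold change turned to 0.28 for Cd4, 0.045 for Lck and 0.21 for Zap70 in SOD1G93A-Lepob/+ against SOD1G93A. In SOD1G93A against WT it turned to -0.42 for Cd3d, -0.27 for Cd3e, -0.21 for Cd3g, -0.32 for Cd247, -0.12 for Cd4, -0.71 for Cd8a, -0.66 for Cd8b1, -0.33 for Lck and -0.057 for Zap70, and in Lepob/+ against WT to 0.11 for Cd28. The interaction turned to 0.61 for Cd3d, 0.57 for Cd3e, 0.095 for Cd3g, 0.59 for Cd247, 0.65 for Cd4, 1.35 for Cd8a, 0.14 for Cd8b1, 0.50 for Lck and 0.35 for Zap70. None of these passed an adjusted p of 0.05, and the cause was not tested. Among 24 same-numbered pairs across genotypes, 5 deviated together (r over 0.1) and 8 apart (under -0.1), so the numbers were taken as names only. With the replicate block in edgeR, 0 members were called in each comparison, the interaction had 0 members at an unadjusted p under 0.05 in place of 6, and Cd28 in Lepob/+ against WT turned to 0.030, and paired sign flips of the ratios gave exact p of 0.125 or more, the smallest that 4 pairs allow.

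Leaving out 1 library at a time, Lepob/+ against WT ranged from -5.11 to 0.12 for Cd3d, -5.16 to 0.096 for Cd3e, -4.84 to 0.097 for Cd3g, -3.86 to 0.16 for Cd4, -1.90 to 0.23 for Cd28, -4.59 to 0.22 for Lck and -4.10 to 0.14 for Zap70, lowest without Lepob/+ replicate 3 and highest without WT replicate 1. The interaction for Cd8a ranged from -6.43 to 0.17, highest without Lepob/+ replicate 3. The log2 ratio difference of SOD1G93A against WT ranged from -0.32 to 0.39. The Pearson r of the members with the other lymph node stroma and high endothelial venule genes was 0.95. Its exact permutation p of 0.00694 was not adjusted for the settings tried and took no account of genotype. Voom moved the median fold change of Lepob/+ against WT to -3.74 and the interaction to -1.68. In the 10 libraries with low Glycam1, 3 to 37 Cd8b1 counts and 8 to 72 Cd8a counts limit the ratios.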

Other observations

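Gamma delta T cells carry the delta constant chain Trdc in place of the alpha chain Trac. The ratio of Trdc to Trac counts was 0.0468 to 0.0673 (median 0.0591) in the 6 libraries with high Glycam1 and 0.132 to 0.667 (median 0.383) in the 10 with low Glycam1, with no overlap, from 10 to 49 Trdc counts in the latter. The medians of the sets differed 9.08-fold for Trdc and 56.3-fold for Trac. Among the gamma constant chains, Tcrg-C1, Tcrg-C2 and Tcrg-C4 each had 0 counts in 2 of the 10 libraries and at most 19, 19 and 13 counts.

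Lep, the gene that carries the ob allele, also divided with Glycam1. It was 181 to 360 CPM in the 6 libraries with high Glycam1 and 447 to 1843 CPM in the 10 with low Glycam1. The highest value was in the library labelled SOD1G93A-Lepob/+ replicate 3. Of 19735 genes, 4.23% were lower in every library with high Glycam1 than in any with low Glycam1. The 8 adipocyte markers, Lep among them, summed to a median of 13191 CPM in the 6 and 20850 CPM in the 10. Mouse Sod1 stood at 277 to 497 CPM over the 16 libraries and does not report the human transgene.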
